A study of Mus musculus with 8 samples.

Results

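The 10 genes described here govern the G1 phase of the cell cycle, in which a cell commits to copying its DNA. They are the D-type cyclins Ccnd1, Ccnd2 and Ccnd3, the cyclin Ccne1, the kinases Cdk4 and Cdk6, the kinase inhibitors Cdkn1b and Cdkn2c, the retinoblastoma gene Rb1 and the transcription factor gene E2f1. The genes were taken as a list, and each of their array probe sets that the platform annotation ties to 1 gene was used. This gave 29 of the 34958 single-gene probe sets, and 10 of the 18194 genes with such a probe set. RNA came from 8 untreated neuroblastomas of LSL-MYCN;Dbh-iCre mice, 1 array per tumor: tumors 7 and 8 arose in the superior cervical ganglion, which supplies the head with sympathetic nerves, and tumors 1 to 6 in the adrenal. In both groups human MYCN sits in the ROSA26 locus behind a CAG promoter and a loxP-flanked stop. Cre, driven from Dbh, the gene of the enzyme that makes noradrenaline, removes the stop in noradrenergic cells. Stromal cells of a tumor keep the stop unless they have expressed Dbh, and the arrays measured tumor and stroma together. Age and strain of each mouse are not given in the sources used here, and normal adrenals were not analysed here, so every level is set against the other tumors.

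D-type cyclins bind CDK4 or CDK6, and the active kinase phosphorylates the retinoblastoma protein, which then releases E2F transcription factors. E2F proteins switch on genes of DNA synthesis, among them cyclin E, which with CDK2 drives the cell into S phase. CDKN2C (p18INK4c) blocks CDK4 and CDK6, and CDKN1B (p27KIP1) holds cyclin E and CDK2 inactive. In human neuroblastoma, cyclin D1 is known for high expression, CDK4 is amplified in some tumors, and MYCN pushes cells through G1.

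MYC-family proteins bind the E-box CACGTG, a palindrome that reads the same on both strands, and the promoters are shown because MYCN drives these tumors. RefSeq windows from 250 bases before to 50 bases after a start site were on hand for 7 of the 10 genes, in assembly GRCm38.p6, and for none of Ccnd1, Ccnd2 and Rb1. The E-box was in 7.15% of all 32851 windows. The 250 bases before the Cdk4 start site (chr10:127063285-127063534, plus strand) hold 4, at positions -172, -118, -98 and -11 from the start site. Only 8 of the 32851 windows (0.0244%) hold 4 or more. The Cdk6 window holds 1, at -220 (chr5:3343643-3343708, plus strand), and 1 of the 2 Cdkn2c windows holds 1, at 35 bases after the start (chr4:109665323-109665350, minus strand). Capitals mark the E-box.
Cdk4: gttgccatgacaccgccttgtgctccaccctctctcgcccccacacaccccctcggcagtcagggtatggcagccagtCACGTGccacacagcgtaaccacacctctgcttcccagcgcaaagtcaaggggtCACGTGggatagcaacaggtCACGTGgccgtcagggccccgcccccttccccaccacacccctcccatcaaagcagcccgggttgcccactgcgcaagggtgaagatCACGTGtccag
Cdk6: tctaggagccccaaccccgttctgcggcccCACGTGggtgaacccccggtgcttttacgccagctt
Cdkn2c: ttgctgaataatCACGTGtgaatcgagg
The letters CACGTG were not found in the windows of Ccnd3, Ccne1, Cdkn1b and E2f1, of which that of E2f1 lies wholly within the bounds of the gene in RefSeq's table and may not be its promoter. Binding was not measured, and a match describes the letters alone.

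Levels are the deposited log2 values, so a step of 1 is a doubling. A probe set was called detected in a tumor when it exceeded the 95th percentile of 84 probe sets on the same array whose genes encode smell, pheromone or taste receptors, a limit of 6.71 to 7.21. On their brightest probe sets, 8 of the 10 genes were detected in all 8 tumors, against 54.6% of the 18194 genes, and the exceptions were Ccnd2 (7 tumors) and Cdk6 (6 tumors). Some arrays stood apart in ways that touch the results below. Tumor 7 was the lowest tumor for all 12 measured genes of a noradrenergic neuroblast list, with Dbh at 9.07, against 13.13 in the other ganglion tumor and 12.53 to 13.54 in the adrenal tumors. Tumor 6 held liver transcripts, with albumin (Alb) at 14.09, against at most 5.96 in the other tumors. RNA integrity, read as the 3′ minus the 5′ signal of Gapdh, was poorest in tumor 1 at 5.51, against 0.47 to 1.57 elsewhere. In whole tumors, fewer cells of a type and less RNA per cell cannot be told apart. The sources leave unsaid whether the tumors were from 8 different mice, so the p-values measure only the spread between these tumors.

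**Figure D1:**
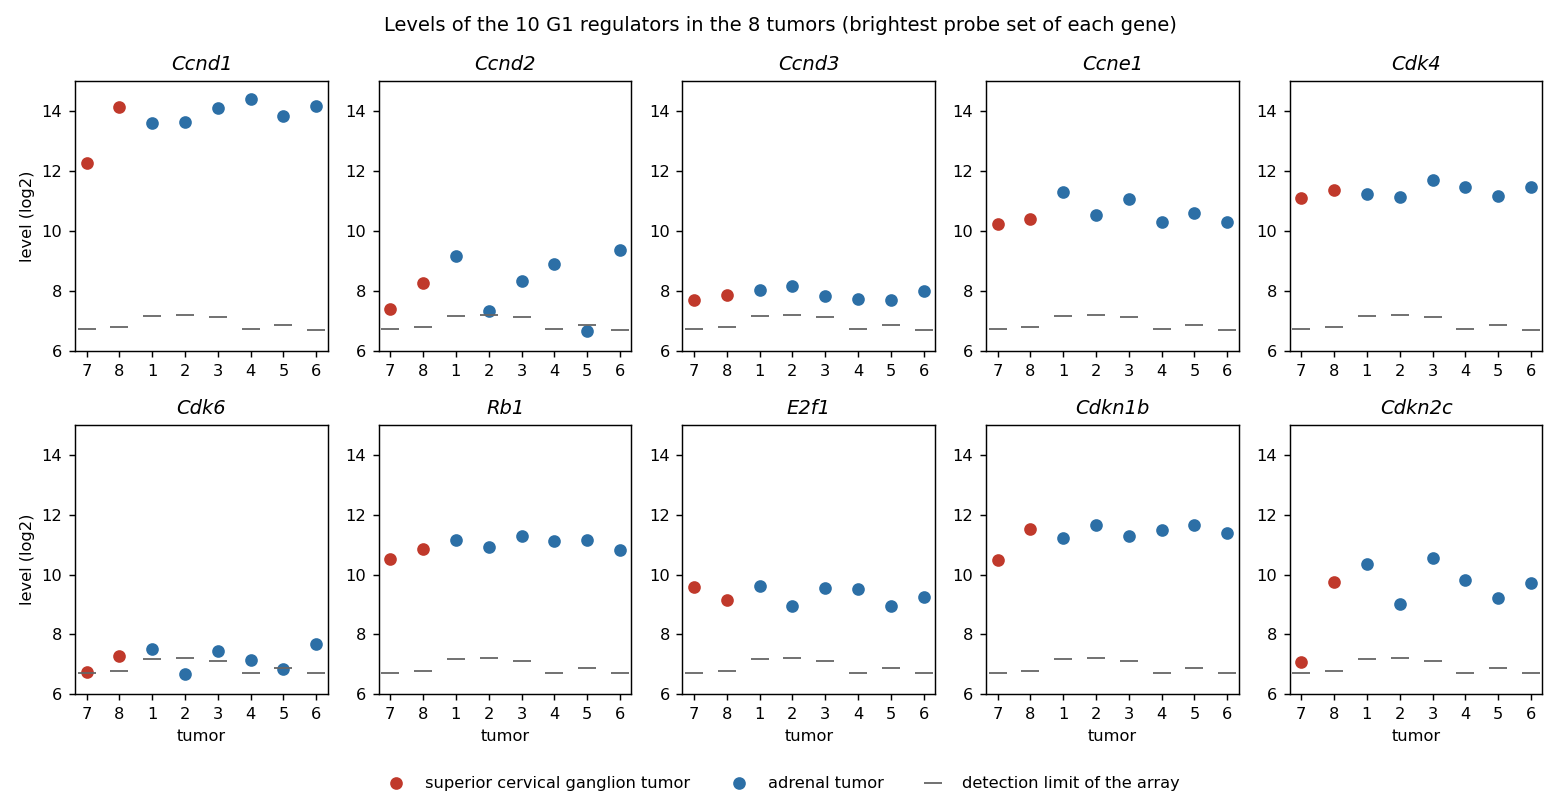
Level (log2) of each of the 10 genes in every tumor on its brightest probe set, with superior cervical ganglion tumors (7 and 8) in red, adrenal tumors (1 to 6) in blue and a dash at the detection limit of each array. Ccnd1, Cdkn1b and Cdkn2c are lowest in tumor 7, while Ccnd2 is spread over the adrenal tumors and falls below the limit in tumor 5.

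Ccnd1 was bright in all tumors but varied with 1 of them. The gene encodes cyclin D1, the D-type cyclin most tied to neuroblastoma. It measured 12.27 in ganglion tumor 7 and 14.15 in ganglion tumor 8. In adrenal tumors it ran from 13.60 in tumor 1 to 14.41 in tumor 4, with a median of 13.96. Tumor 8 thus lay within the adrenal range, and tumor 7 lay 1.33 or more below it. All 3 Ccnd1 probe sets had their lowest value in tumor 7, at 12.27, 12.06 and 9.83. The SD over the 8 tumors was 0.67, above that of 92.0% of the 16254 genes tested, but over the 6 adrenal tumors alone it was 0.32, above 70.3%.

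Ccnd2, the gene of cyclin D2, behaved otherwise: its spread lay within the adrenal group. It measured 7.40 in ganglion tumor 7 and 8.27 in ganglion tumor 8. Adrenal values were 9.36 in tumor 6, 9.17 in tumor 1, 8.91 in tumor 4, 8.32 in tumor 3, 7.32 in tumor 2 and 6.67 in tumor 5, the only value below the limit of its array. All 7 Ccnd2 probe sets had their highest value in tumor 6 and their lowest in tumor 5, although 2 of them were below the limit in every tumor. The SD of the brightest probe set over the adrenal tumors was 1.08, above that of 98.4% of genes tested. Stromal and immune cells also express D-type cyclins, and markers of some of these cells moved in part with Ccnd2. The fibroblast and pericyte list, centred per gene and averaged over 9 genes, was -0.11 and 0.54 in ganglion tumors 7 and 8, and in adrenal tumors it was lowest in tumor 5 (-1.52) and highest in tumor 1 (1.15). Its collagen gene Col1a1 was 7.46 in tumor 5, against 8.90 to 11.15 in the other 7. The macrophage list (10 genes) was -0.64 and 0.39 in ganglion tumors 7 and 8. In adrenal tumors it was -0.54 in tumor 5, 0.0066 in tumor 4 and 0.11 to 0.23 in the others, highest in tumor 2. The lymphocyte list (8 measured genes, 6 of them detected in no tumor) was -0.27 and -0.060 in ganglion tumors 7 and 8. It was highest in tumor 2 (0.34), against -0.13 in tumor 4, -0.14 in tumor 6 and -0.20 in tumor 5. The Schwann cell list (4 measured genes) was -0.99 and 0.47 in ganglion tumors 7 and 8, and in adrenal tumors it had its lowest value in tumor 5 (-0.62) and its highest in tumor 6 (0.52). The endothelial list (8 genes) was highest in ganglion tumors 7 and 8, at 0.32 and 0.74. In adrenal tumors it was lowest in tumor 5 (-0.76) and highest in tumor 1 (0.12), with 0.064 in tumor 6 and -0.21 in tumor 4. Tumor 6, the highest for Ccnd2, also held liver transcripts, with the hepatocyte list at 6.30, against -1.17 to -0.63 in the other tumors. Its adrenal cortex list was 1.20, against -0.26 to 0.0054 in the other tumors. The part of all these cells in the Ccnd2 level was not tested.

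Ccnd3, the gene of cyclin D3, was nearly level. It measured 7.70 in ganglion tumor 7 and 7.88 in ganglion tumor 8, against 7.69 to 8.16 (median 7.91) in the adrenal tumors, and the groups overlapped. Its SD of 0.18 was above that of only 24.4% of genes tested, and its other 2 probe sets were below the limit in every tumor.

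Ccne1 encodes cyclin E1, the partner of CDK2 at the entry into S phase. It measured 10.25 in ganglion tumor 7 and 10.39 in ganglion tumor 8. Adrenal values ran from 10.30 in tumor 6 through a median of 10.57 to 11.30 in tumor 1. Tumors 1 and 3 (11.06) stood above the others, and the same 2 tumors were highest on the second probe set, at 10.54 and 10.64, against 9.43 to 9.72 in the remaining 6. Tumor 1 is also the tumor with the largest Gapdh 3′ to 5′ gap. Whether RNA integrity had a part in its Ccne1 level was not tested.

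**Figure D2:**
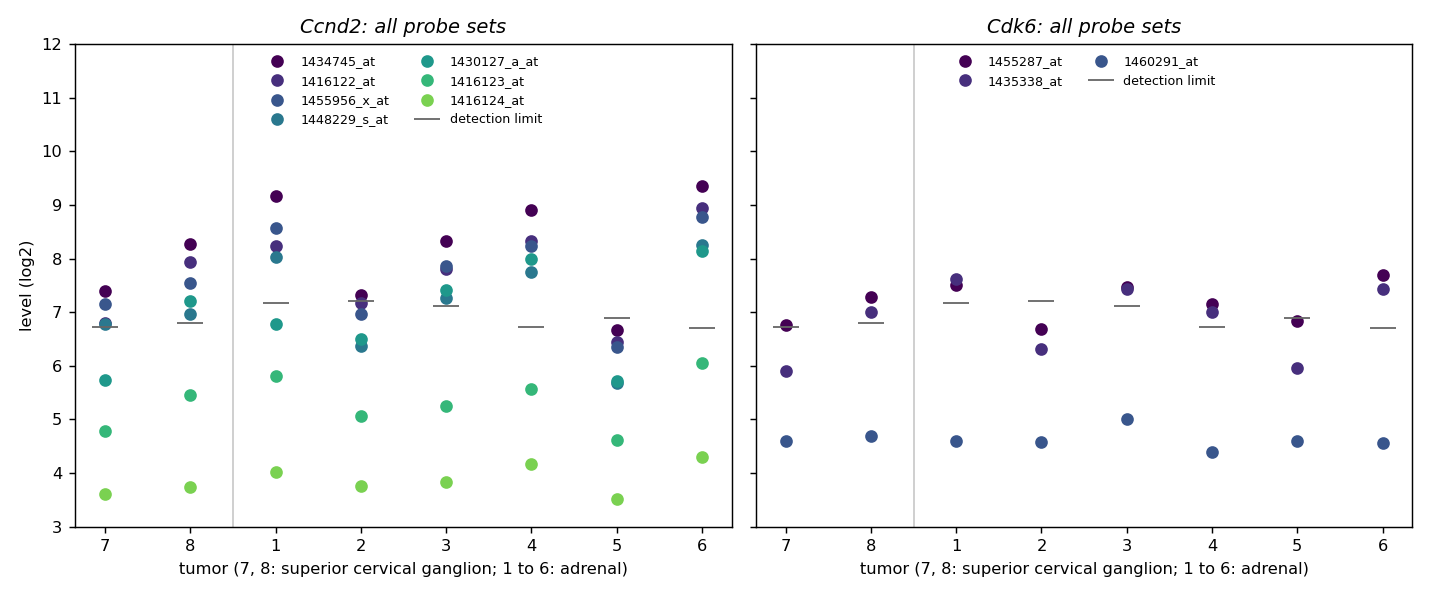
Level (log2) of all 7 Ccnd2 probe sets and all 3 Cdk6 probe sets in each tumor, ganglion tumors 7 and 8 left of the line and adrenal tumors right of it, with a dash at the detection limit. Each Ccnd2 probe set is highest in tumor 6 and lowest in tumor 5.

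The kinase genes Cdk4 and Cdk6 both had overlapping groups. Cdk4 was 11.12 in ganglion tumor 7 and 11.36 in ganglion tumor 8, against 11.12 to 11.71 (median 11.35) in the adrenal tumors. All 3 Cdk4 probe sets were highest in tumor 3, yet the whole range over the 8 tumors was narrow, with an SD of 0.21. The brightest Cdk6 probe set had an SD of 0.38. It measured 6.76 in ganglion tumor 7 and 7.28 in ganglion tumor 8, and in adrenal tumors it ran from 6.68 in tumor 2 to 7.70 in tumor 6, with a median of 7.31. Tumor 6 is also the tumor with liver transcripts, whose part in its Cdk6 level was not tested. Tumors 2 and 5 (6.84) were under the limit. On the second Cdk6 probe set tumors 7 (5.91), 5 (5.96) and 2 (6.31) were again the 3 lowest, so the low group was the same on both, and the third probe set was at background.

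Of the inhibitors, Cdkn2c had the higher SD over the 8 tumors, in large part through tumor 7. It measured 7.08 in ganglion tumor 7, just over the limit of 6.73, and 9.74 in ganglion tumor 8. With the limit at the 99th percentile of the same receptor probe sets, 7.30 in tumor 7, Cdkn2c was not detected in that tumor. The adrenal tumors ran from 9.01 in tumor 2 through a median of 9.77 to 10.57 in tumor 3. Tumor 8 lay inside the adrenal range and tumor 7 lay 1.93 below the next tumor. The SD of 1.08, which was 0.56 without tumor 7, was above that of 97.6% of genes tested, and the adrenal SD of 0.61 above that of 93.1%, so Cdkn2c varied within the adrenal group too. Cdkn2c has 1 probe set here, and no second one could be set beside it.

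Cdkn1b was 10.47 in ganglion tumor 7 and 11.52 in ganglion tumor 8, against 11.21 to 11.66 (median 11.43) in the adrenal tumors. Tumor 7 was lowest on both Cdkn1b probe sets, and on the second it shared the low end (6.45) with tumor 1 (6.73), where the remaining 6 tumors were at 7.52 to 7.93. Within the adrenal group the brighter probe set was narrow, with an SD of 0.19. Cdkn1b and Ccnd2 lie on chromosome 6, which carries the ROSA26 locus. The median difference of that chromosome's genes from the other tumors was -0.13 in ganglion tumor 7 and 0.0054 in ganglion tumor 8. In the adrenal tumors it was 0.16 in tumor 1, 0.18 in tumor 2, -0.039 in tumor 3, -0.14 in tumor 4, 0.17 in tumor 5 and -0.10 in tumor 6. On the other chromosomes that carry any of the 10 genes, tumor 1 was raised too, at 0.099 to 0.16. Tumor 2 was at 0.032 to 0.083 there, and tumor 5 at -0.054 to -0.020. The part of chromosome 6 in the level of either gene was not tested.

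Rb1 and E2f1 were detected in all tumors. Rb1 measured 10.53 in ganglion tumor 7 and 10.87 in ganglion tumor 8, against 10.83 to 11.28 (median 11.14) in the adrenal tumors. E2f1 measured 9.59 in ganglion tumor 7 and 9.16 in ganglion tumor 8, against 8.95 in tumor 2 to 9.62 in tumor 1 (median 9.38) in the adrenal group. E2f1 was thus among the highest in tumor 7, the tumor in which 6 of the 10 genes had their lowest level (26.4% of genes tested were lowest there). Among those 6, tumor 7 was lowest by only 0.0045 for Cdk4 and 0.051 for Ccne1. Of 3 Cdk4 probe sets, 2 were lowest in tumor 7 and 1 in tumor 2, and the second Ccne1 probe set was lowest in tumor 8. The second detected E2f1 probe set gave 9.19 in tumor 7 and 8.89 in tumor 8, against 8.32 to 9.21 in the adrenal tumors.

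The comparison of sites asks whether tumors of the superior cervical ganglion differ from adrenal tumors in these genes. No difference passed. With limma over 16254 genes and Benjamini-Hochberg adjustment, 0 of the 10 genes were called, against 0.0185% of all genes tested (3 genes), and 0 had an unadjusted p under 0.05, against 4.68% of all genes. The groups overlapped in all 10 genes, whereas in 4.42% of the genes tested they did not. The estimates were lower in ganglion tumors for 9 genes and higher for E2f1, with a median difference of -0.37, against -0.027 over all genes tested. Cdkn2c averaged 8.41 in ganglion tumors and 9.77 in adrenal tumors, a difference of -1.37 (SE 0.65, 95% interval -2.85 to 0.11, limma adjusted p = 0.903). Ccnd1 averaged 13.21 in ganglion and 13.96 in adrenal tumors, a difference of -0.75 (SE 0.43, limma adjusted p = 0.903). Rb1 had the lowest unadjusted p of the list, with 10.70 in ganglion and 11.07 in adrenal tumors, a difference of -0.38 (SE 0.17, limma adjusted p = 0.903). The interval of Ccnd2 ran from -2.05 to 1.13, which includes both a large fall and a doubling, so the data do not show that the sites are alike.

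Apart from those of Ccne1 and Rb1, the negative estimates rested largely on tumor 7. Set against the adrenal mean, the median of the 10 genes was -0.50 in tumor 7 and -0.029 in tumor 8, where that of all genes tested was -0.072 and 0.012. Without tumor 7 the difference was 0.19 for Ccnd1, 0.072 for Cdkn1b and -0.037 for Cdkn2c, while it was still -0.29 for Ccne1 and -0.21 for Rb1. For Ccnd2, Ccnd3, Cdk4 and Cdk6 it was -0.026, -0.032, -0.00053 and 0.057, against -0.46, -0.12, -0.12 and -0.20 with both ganglion tumors. Without tumor 8, which leaves tumor 7 alone against the 6 adrenal tumors and assumes that it varies like them, Ccnd1 (-1.69, limma adjusted p = 0.0206), Cdkn1b (-0.98, limma adjusted p = 0.0409) and Cdkn2c (-2.70, limma adjusted p = 0.0275) passed, against 3.00% of genes tested called lower in that fit. This describes 1 tumor and not a site. The same tumor was low in the noradrenergic list, whose mean centred level was -2.69 in tumor 7 and 0.46 in tumor 8, against 0.20 to 0.61 in the adrenal tumors, with 10 of its 12 genes detected in tumor 7. Skeletal muscle genes ran higher at both ganglion tumors, with the list at 1.17 and 0.62, against -0.48 to -0.085 in the adrenal tumors, and 6 and 5 of its 8 genes detected. Its defining gene Acta1 was 9.63 and 9.20 in ganglion tumors 7 and 8, against 6.99 to 7.36 in the adrenal tumors. The mitosis list, in contrast, did not set tumor 7 apart, at -0.10, beside -0.054 in tumor 8 and -0.49 to 0.59 in the adrenal tumors. The part of the cell mixture in the low levels of tumor 7 was not tested.

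**Figure D3:**
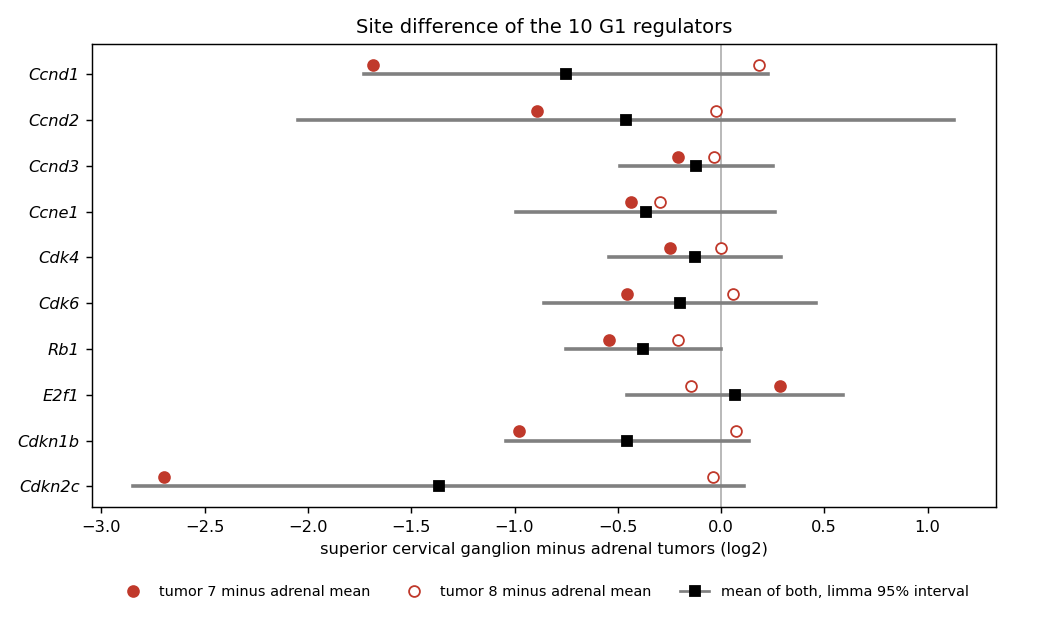
Difference in log2 level, superior cervical ganglion minus adrenal tumors, for each gene: the limma estimate (square) with its 95% interval, and each ganglion tumor minus the adrenal mean (filled circle tumor 7, open circle tumor 8). Every interval includes 0. Tumor 8 lies at -0.29 for Ccne1 and -0.21 for Rb1, and at -0.15 to 0.19 for the other 8 genes.

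A second question was whether any of the 10 genes follows how strongly a tumor expresses its division genes. The mitosis score averaged 27 genes of the spindle and of late cell cycle, and the E2F target score 24 genes of DNA replication and nucleotide supply, each centred over the tumors. None of the 10 genes is in either score. The mitosis score was -0.10 and -0.054 in ganglion tumors 7 and 8, and in adrenal tumors it was highest in tumor 3 (0.59) and lowest in tumor 2 (-0.49). The E2F target score was -0.022 and -0.065 in ganglion tumors 7 and 8, and ran from -0.48 in tumor 5 to 0.34 in tumors 1 and 3. The points share their array, since a gene and a score come from the same hybridisation.

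Of 20 pairs of a gene and a score, 2 passed Benjamini-Hochberg adjustment by Pearson's r and 0 by Spearman's rho, with 4 unadjusted p-values by Pearson under 0.05. Cdk4 rose with the mitosis score, with r = 0.901 (exact permutation p = 0.00179, adjusted 0.0357) and rho = 0.905 (exact permutation p = 0.00456, adjusted 0.0913) over 8 tumors. Only 0.592% of the genes tested outside the score had an r of that size in either direction. Without tumors 2 and 3, the farthest from the median score, r was 0.750. E2f1 rose with the E2F target score, with r = 0.893 (exact permutation p = 0.00404, adjusted 0.0404) and rho = 0.833 (exact permutation p = 0.0154, adjusted 0.109), where 0.776% of genes had an r of that size. Without tumors 1 and 5, r was 0.815. Tumor 1, the highest for both E2f1 and this score, has the Gapdh gap of 5.51, whose part was not tested. Both are 2-sided tests. In the 6 adrenal tumors alone, a choice made after seeing the data, r was 0.947 for Cdk4 and 0.987 for E2f1 (exact permutation, adjusted p = 0.0278 and 0.0417). Leaving out a single tumor gave r from 0.799 to 0.944 for Cdk4 and from 0.851 to 0.981 for E2f1. The Cdk4 call was lost without any 1 of tumors 2, 3, 4, 5, 6 and 8, and the E2f1 call without any 1 of tumors 1 to 6 and 8, with 7 tumors then left. The size of the Cdk4 change was small: from the lowest to the highest tumor its level moved by 0.60 on the log2 scale.

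By Pearson's r the inhibitors passed adjustment only when tumor 7 was left out. Over 8 tumors Cdkn2c had r = 0.464 and Cdkn1b r = -0.346 with the E2F target score (exact permutation, adjusted p = 0.473 and 0.563). Spearman's rho over the same 8 tumors was larger in size, at 0.762 and -0.714 (exact permutation, adjusted p = 0.123 and 0.144). With the mitosis score, Cdkn2c had rho = 0.810 over 8 tumors (exact permutation, adjusted p = 0.109). Over the other 7 tumors Cdkn2c had r = 0.923 (exact permutation, adjusted p = 0.0370) and Cdkn1b r = -0.897 (exact permutation, adjusted p = 0.0460). With the mitosis score, Cdkn2c then had r = 0.891 (exact permutation, adjusted p = 0.0460). On these probe sets Cdkn2c was highest and Cdkn1b lowest of the 7 tumors in tumors 1 and 3, where the E2F target score was highest. The second Cdkn1b probe set shared this only in part: of the 7 tumors it was lowest in tumor 1 (6.73) but highest in tumor 3 (7.93). The opposite run in both tumors thus rests on 1 Cdkn1b probe set. Tumor 1 is the tumor with the Gapdh gap of 5.51, whose part was not tested. In the 6 adrenal tumors alone r was 0.925 for Cdkn2c and -0.898 for Cdkn1b, and neither passed (exact permutation, adjusted p = 0.102 and 0.128). Ccnd2 had r = 0.777 with the E2F target score over 8 tumors (exact permutation, adjusted p = 0.171). Ccnd1 was at 0.171 and Rb1 at 0.323 with the same score, and their adjusted exact permutation p-values were 0.750 and 0.563.

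**Figure D4:**
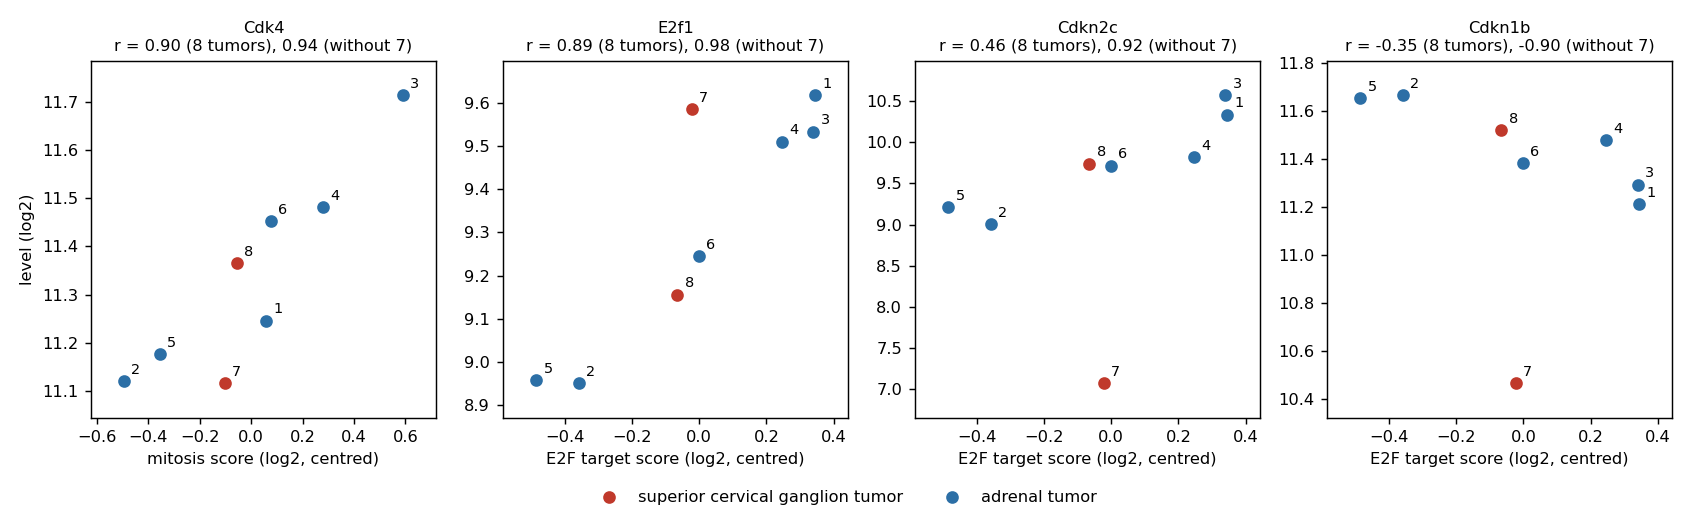
Level (log2) of Cdk4 against the mitosis score, and of E2f1, Cdkn2c and Cdkn1b against the E2F target score (mean of log2 values centred per gene), 1 numbered point per tumor, with ganglion tumors in red and adrenal tumors in blue. Cdk4 and E2f1 climb with the scores, while for Cdkn2c and Cdkn1b tumor 7 lies far below the line of the other 7 tumors.

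The other genes of the pathway gave a wider setting. Of 36 listed partners, all measured, 31 were detected in all tumors, and Ccna1, the germ-line cyclin A1, was detected in none. Between the sites 0 of 36 passed limma, 17 were higher and 19 lower in ganglion tumors, and the median difference was -0.13. The only unadjusted p under 0.05 was that of Rbl1, the RB relative p107, which is named for its value (ganglion 8.10 and 9.18, adrenal 8.85 to 9.77, difference -0.77, limma adjusted p = 0.903). Without tumor 8, E2f6 (0.77, limma adjusted p = 0.0471) and Tfdp2 (-1.29, limma adjusted p = 0.0461) passed, and 2 of 36 partners is close to the 5.87% of all genes tested that were called in that fit.

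The partner with the highest SD was Cdkn2a, the locus of p16INK4a and p19ARF. It was 4.69 in ganglion tumor 7 and 8.44 in ganglion tumor 8, and in adrenal tumors it ran from 5.09 in tumor 4 to 9.27 in tumor 5, with a median of 6.91. It was detected only in tumors 3, 5 and 8, so its spread runs from background to a clear signal at both sites. Cdkn1c, the gene of p57KIP2, was 7.75 and 8.91 in ganglion tumors 7 and 8, against 7.04 in tumor 3 to 9.79 in tumor 1. Thus tumor 3, the highest for Cdkn2c, was the lowest for Cdkn1c. Cdkn2d, the gene of p19INK4d, was 9.87 and 11.58 in ganglion tumors 7 and 8, and 10.40 in adrenal tumor 1, against 11.23 to 11.55 in the other adrenal tumors. E2f2, an activating E2F, was 9.07 and 9.82 in ganglion tumors 7 and 8, and 7.76 in adrenal tumor 1, against 9.19 to 9.95 in the other adrenal tumors. Tumor 1 was thus low for both E2f2 and Cdkn2d, and it is the tumor with the Gapdh gap of 5.51, whose part was not tested. E2f8, a repressor E2F, was 8.21 and 9.10 in ganglion tumors 7 and 8, against 8.33 to 10.04 in the adrenal tumors. Fbxo5, the gene of the APC/C inhibitor EMI1, was 8.92 and 9.84 in ganglion tumors 7 and 8, against 8.75 to 10.39 in the adrenal tumors. Both had their low adrenal values in tumors 2 and 5, the tumors with the lowest division scores.

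**Figure D5:**
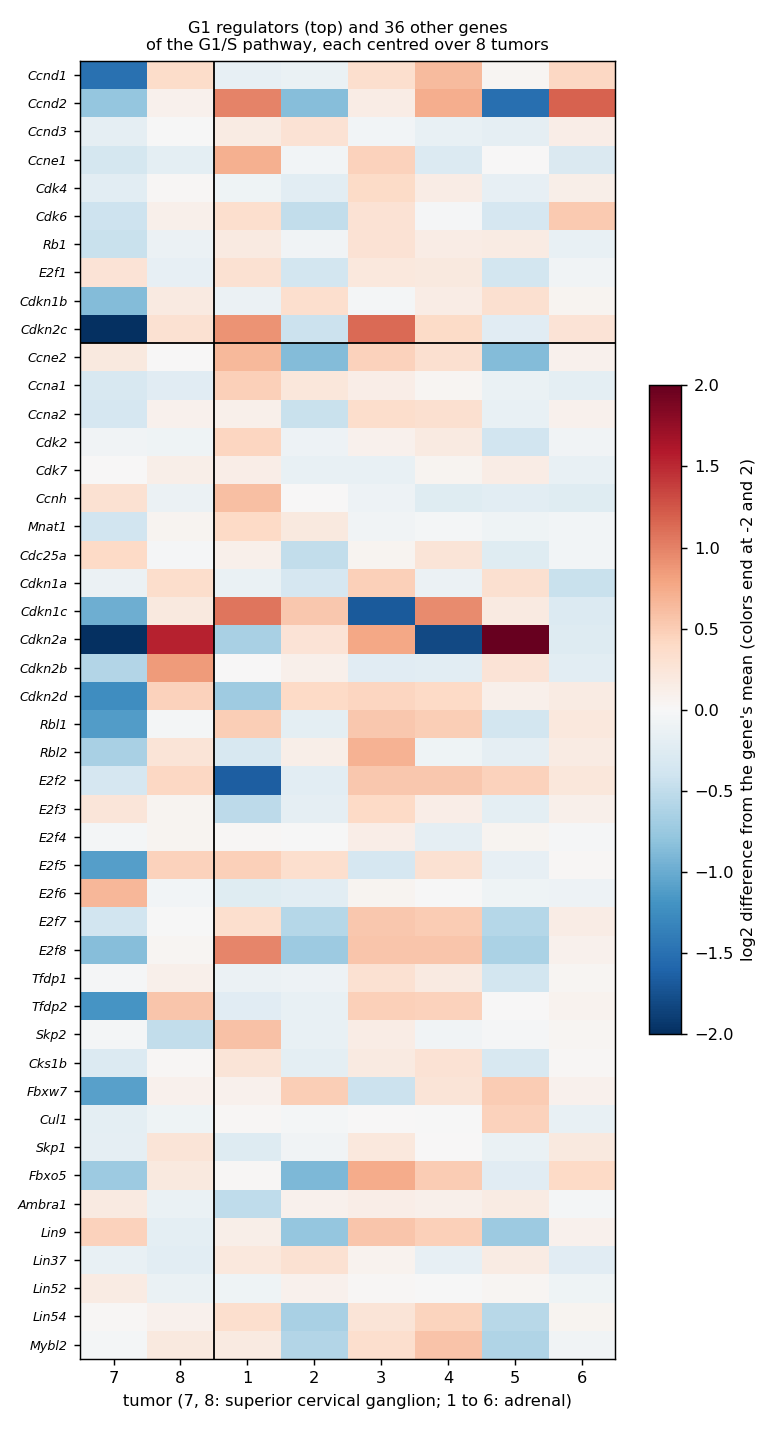
Log2 difference of each gene from its own mean over the 8 tumors, for the 10 genes (above the line) and 36 partners of the pathway (below it), with ganglion tumors 7 and 8 left of the vertical line and adrenal tumors right of it. Colors end at -2 and 2. Cdkn2c and Cdkn2a are the deepest blue in tumor 7, and Cdkn2a is the deepest red in tumor 5.

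For each gene the 3 genes tested with the highest Pearson's r over the 8 tumors were listed as a description, with 16254 genes to choose from. E2f1 ran closest to Cdca8 (r = 0.991), Poc1b (0.990) and Gen1 (0.988), of which Cdca8 encodes the mitotic protein borealin and Gen1 a nuclease that cuts DNA junctions. Cdk4 ran closest to Nsd2 (r = 0.989), Ckap2 (0.981) and Hmgxb4 (0.974), of which Ckap2 encodes a spindle protein and Nsd2 a histone methyltransferase. Leaving out tumor 7 left these r values at 0.977 to 0.993. Cdkn2c ran closest to Pcdh19 (r = 0.991), Gas2l3 (0.980) and Trp53bp2 (0.978). Ccnd1 ran closest to Meis1 (r = 0.994), the copper transporter gene Slc31a1 (0.990) and Tet1 (0.989), and Cdkn1b to Slc7a14 (0.988), Dnajc18 (0.987) and Rsph9 (0.985). Without tumor 7, r lay between 0.910 and 0.965 for these 9 pairs. Ccnd2 ran closest to Clca3a1 (r = 0.945), Bst2 (0.940) and Ubr1 (0.926), and Cdk6 to Fzd7 (0.980), Xaf1 (0.962) and Ifit3 (0.958). Bst2, Xaf1 and Ifit3 are interferon-induced genes. Ccne1 ran closest to Large2 (r = 0.982), Muc13 (0.979) and Lrch1 (0.965). Rb1 ran closest to Pagr1a (r = 0.978), Hnrnpul1 (0.966) and Wdr83 (0.963), and Ccnd3 to Smagp (0.943), Dap (0.938) and Wfdc15b (0.938).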

How the data were processed

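The authors deposited log2 expression values of Affymetrix mouse oligonucleotide arrays, 1 per tumor, 6 adrenal and 2 ganglion. RMA and Partek 6.6 stand in the submitters' processing notes and gcRMA in the Methods, and which of them gave these values is open. Either way the values are background-corrected and normalized, steps that shrink or stretch differences of dim probe sets. Upper quartiles were 8.85 to 8.93, and 0 pairs of arrays were identical. Arrays of these 8 tumors limit the precision by their number.

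Probe sets were named from the platform annotation (34958 with 1 gene, 932 with several, 9211 with none), and 34754 Entrez matches in RefSeq's GRCm38.p6 table updated symbols. The brightest probe set over the 8 tumors stood for its gene, and a gene was tested when 2 or more tumors exceeded log2 5, which left 16254. The site comparison used lmFit and eBayes of limma 3.58.1 (R 4.3.3) with Benjamini-Hochberg adjustment at 0.05, a step tested on simulated data. Correlations used exact permutation over 40320 orders of the tumors (Python 3.11.15, numpy 2.4.6, pandas 2.3.3, scipy 1.17.1, matplotlib 3.10.9). Alternatives covered normalization, filter, probe set rule, variance model, detection limit and each tumor left out.

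Named are all 10 genes with their probe sets, partners called, detected nowhere or among the 6 with the highest SD, the 3 genes most like each, and defining markers. Other names are marked. The genes, partner and marker lists were chosen with earlier results of these data known. Levels of different probe sets were not compared with each other. Normal adrenals were not used here.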

Additional observations from a re-analysis of the deposited data

Results flagged for a closer look

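Of 47 sets of values over the tumors that were examined for a single sample far from the others, 5 held one, and 4 of the 5 concerned ganglion tumor 7. By the same measure over the 8 tumors, 15.1% of the 16254 genes tested had 1 tumor far from the others, and 4.05% had tumor 7 far below, as 3 of the 10 genes did. The number given is the gap between that tumor and its nearest neighbour as a share of the whole range. For Ccnd1, tumor 7 was at 12.27 and the others at 13.60 to 14.41, a share of 0.621. On the second Ccnd1 probe set tumor 7 was at 12.06 and the others at 13.39 to 14.27, a share of 0.603. For Cdkn1b, tumor 7 was at 10.47 and the others at 11.21 to 11.66, a share of 0.623. For Cdkn2c, tumor 7 was at 7.08 and the others at 9.01 to 10.57, a share of 0.553. For E2f2, adrenal tumor 1 was at 7.76 and the others at 9.07 to 9.95, a share of 0.601.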

How the results depend on the processing

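The 3 genes called between the sites became 1 with a filter on detected genes, 6 with the mean of all probe sets, 10 without tumors 6 and 7, and 2 to 954 when 1 tumor was left out, the 954 without tumor 8. The count of the 10 genes called was 0 to 3 and of partners 0 to 2 under the same omissions, with the highest again without tumor 8, and was 0 under the other settings run. Without tumors 6 and 7 the site difference changed sign for Ccnd1 (0.23), Ccnd2 (0.19), Cdk4 (0.0168), Cdk6 (0.15), E2f1 (-0.16) and Cdkn1b (0.0593). With 1 tumor left out the difference ran from -1.69 to 0.19 for Ccnd1, -0.46 to 0.0565 for Cdk6, -0.15 to 0.28 for E2f1 and -0.98 to 0.0723 for Cdkn1b. The count of correlated pairs, 2 over the 8 tumors, was 0 with the mean of probe sets, the cause of which was not tested, and 0 to 5 with 1 tumor left out, the 5 without tumor 7. With 1 tumor left out, r with the mitosis score ran from -0.548 to 0.180 for Ccnd3, -0.0444 to 0.452 for Ccne1 and -0.757 to 0.00134 for Cdkn1b, and r of Ccnd3 with the E2F target score from -0.433 to 0.415. That r was 0.0249 after quantile normalization. Of the 10 genes, 8 were detected in all tumors, 7 with the limit at the 99th percentile and 10 with a limit of log2 5. No paired analysis was possible because the labels give the sites no shared replicate numbers. A site group of 2 tumors, of which 1 stands apart, limits every site comparison, and Ccnd2 and Cdk6 lie near the detection limit of several arrays.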
